A study of Homo sapiens with 4 samples.

Results

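Small Cajal body RNAs were read on 4 arrays of human prostate cancer cultures. The genes were taken by symbol, as every gene of the array annotation named SNORA or SCARNA with a number and at most 1 further letter. The rule found 21 genes of 14006 with a named probe, and all 21 were SCARNA genes. No SNORA gene had a named probe (0 of the 178 in the RefSeq gene table), so the H/ACA small nucleolar RNAs of the ribosome are not analysed here, and the genes are called Cajal body RNAs. Of 29 SCARNA genes in that table, SCARNA12, SCARNA13, SCARNA16, SCARNA18B, SCARNA21B, SCARNA26A, SCARNA26B and SCARNA28 had no named probe. Each of the 21 genes had 1 probe.

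The cultures were PC3 and LNCaP cells, with 1 array of total RNA per group and no replicate. PC3 comes from a bone metastasis and is labelled androgen-independent; PC3-H (high) and PC3-L (low) are PC3 cells separated by the antibody IIH6C4 against the laminin-binding O-glycan, the sugar chain by which dystroglycan holds laminin. LNCaP comes from a lymph node metastasis and is labelled androgen-dependent and high for the glycan. LNCaP-AI is labelled as its androgen-independent, low-glycan derivative, kept in RPMI1640 with charcoal-stripped serum, which is poor in steroids; its description also names medium conditioned by human perineural cells. The labels call PC3-L and LNCaP-AI the more motile and invasive cultures. The free-text descriptions swap high and low for the PC3 pair; titles and source names were followed, and with the other reading every PC3 sign below turns. The labels do not say whether a culture is 1 clone or several.

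The line markers went against 1 label. KLK3, which encodes prostate-specific antigen, was 1781 on LNCaP but 61.2 on the array labelled LNCaP-AI, against 59.0 and 63.4 on PC3-H and PC3-L. AXL, a receptor kinase of PC3 cells, was 47.4 on LNCaP against 1015 on that array, with 609 and 900 on the PC3 arrays. The 3 LNCaP markers measured summed to 3290 on LNCaP and 162 on that array, and the 5 PC3 markers to 188 and 3408. Single markers did not all follow the sums: CXCL8, an interleukin listed for PC3, was 302 and 497 on the PC3 arrays but 46.9 on the array labelled LNCaP-AI and 22.3 on LNCaP, and SPDEF, an epithelial factor listed for LNCaP, was 566 on LNCaP and 306 on PC3-H. This array is therefore called the array labelled LNCaP-AI. Markers of other cells differed little between arrays. The 2 fibroblast genes measured summed to between 67.3 and 76.1, the 2 Schwann and perineurial genes to between 81.7 and 98.9, the 2 leukocyte genes to between 99.8 and 117 and the 2 endothelial genes to between 99.0 and 129, and no marker was at 0. LUM and LYZ lay below the filter level (between 33.6 and 34.8) on all 4 arrays. THY1, SOX10, NKG7, CLDN5 and ESAM lay above it on all 4. S100B, listed for Schwann and perineurial cells, was above that level only on the array labelled LNCaP-AI, at 38.1. On PC3-H, PC3-L and LNCaP it was 33.1, 28.1 and 27.5. The part of these markers in the results was not tested. Array medians lay between 39.8 and 41.2.

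Cajal bodies are small bodies in the nucleus where the RNAs of the splicing machinery mature. Their own small RNAs, the scaRNAs, base-pair with the spliceosomal snRNAs and direct 2 kinds of chemical change. Box C/D scaRNAs guide ribose methylation with the methylase fibrillarin, and box H/ACA scaRNAs guide conversion of uridine to pseudouridine with the synthase dyskerin; a few carry both kinds of box. Most are not transcribed alone but are cut from introns of other genes, so that a host transcript and its scaRNA start from the same promoter. Telomerase RNA, TERC, ends in an H/ACA domain and passes through the same bodies.

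By textbook class, 12 of the 21 are box H/ACA, 5 are box C/D, 3 carry both boxes (SCARNA5, SCARNA6 and SCARNA10, also known as U87, U88 and U85) and SCARNA27 was left without a class. The H/ACA genes were 125 to 166 bases long and the other 2 classes 266 to 421 bases. By their coordinates, 20 of the 21 lay within the span of another gene, and SCARNA2 did not. SCARNA5 and SCARNA6 lay within the same host, the autophagy gene ATG16L1. The strand of the small RNAs is not in that table and was not compared.

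Letters of 2 members could be read from RefSeq tables (GRCh38.p14) because another entry overlaps them. They are shown because SCARNA17 differed in the other direction from most of the family on the array labelled LNCaP-AI, and because SCARNA3 shares its letters with a microRNA hairpin, so that their letters cannot be told apart in the overlap. The first entry is chr18:49813973-49814072, plus strand, around the start of the host RNA SNHG22. Its capitals are the 50 bases inside the SCARNA17 annotation, which begins at the same base as SNHG22. The second is the MIR1843 hairpin at chr1:175968370-175968479, minus strand, and its capitals are the 83 of 110 bases that fall inside SCARNA3.
SCARNA17 start: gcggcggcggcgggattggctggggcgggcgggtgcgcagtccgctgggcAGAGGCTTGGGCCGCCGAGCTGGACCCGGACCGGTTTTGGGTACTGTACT
MIR1843 over SCARNA3: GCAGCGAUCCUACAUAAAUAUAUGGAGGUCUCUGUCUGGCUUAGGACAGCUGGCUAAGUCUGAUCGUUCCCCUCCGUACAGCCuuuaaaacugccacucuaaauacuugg

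Host promoters bear on members that share a host. The windows below run from 250 bases before to 50 after the start of the hosts of members past 2-fold in the PC3 or the LNCaP pair, where the table holds them: ATG16L1 (chr2:233251423-233251722, plus strand), KHDC4 (chr1:155934364-155934663, minus strand) and EIF1AX, around SCARNA9L (chrX:20141789-20142088, minus strand), in GRCh38.p14. Capitals mark CCGGAAG on either strand, letters that ETS-family factors bind, chosen after the windows had been read.
ATG16L1: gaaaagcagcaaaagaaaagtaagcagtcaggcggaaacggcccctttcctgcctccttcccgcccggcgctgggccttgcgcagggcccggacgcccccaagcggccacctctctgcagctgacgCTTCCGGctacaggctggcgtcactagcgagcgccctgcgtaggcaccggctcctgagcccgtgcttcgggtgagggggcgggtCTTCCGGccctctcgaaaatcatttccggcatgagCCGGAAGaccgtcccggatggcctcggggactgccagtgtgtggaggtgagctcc
KHDC4: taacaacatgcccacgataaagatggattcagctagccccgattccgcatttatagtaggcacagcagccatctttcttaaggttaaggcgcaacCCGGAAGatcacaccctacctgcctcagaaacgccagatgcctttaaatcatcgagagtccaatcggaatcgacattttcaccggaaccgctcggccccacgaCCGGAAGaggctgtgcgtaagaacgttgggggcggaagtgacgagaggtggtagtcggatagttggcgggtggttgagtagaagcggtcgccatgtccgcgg
EIF1AX: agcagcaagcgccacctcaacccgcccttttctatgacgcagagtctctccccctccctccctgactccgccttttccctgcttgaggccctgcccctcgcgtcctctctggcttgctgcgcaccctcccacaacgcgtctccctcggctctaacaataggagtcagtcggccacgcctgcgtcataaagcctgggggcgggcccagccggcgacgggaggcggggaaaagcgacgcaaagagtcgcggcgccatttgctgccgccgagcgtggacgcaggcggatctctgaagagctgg

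The ATG16L1 window held CCGGAAG 3 times, the KHDC4 window 2 times and the EIF1AX window 0 times. Of 20 host windows 7 held it on either strand, against 10.3% of all 35116 windows of the same length. The letters were picked from these same windows, so this count gives no support for an excess. Of 22 containing genes 20 had a window, and KPNA4 and TIPIN were not among them. The windows of EEF1E1 and EEF1E1-BLOC1S5 overlap. TATAAA was in 1 of the 20, that of KHDC4, against 11.5% of all windows. A match is a description of letters and not a site.

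SCARNA5 and SCARNA6, the pair within ATG16L1, had the widest range among the members. SCARNA5 had an intensity of 1312 on PC3-H but 307 on PC3-L, while LNCaP had 377 against 1401 on the array labelled LNCaP-AI. The RNA was thus high on PC3-H and on the array labelled LNCaP-AI and low on the other pair of arrays. SCARNA6 was 533 on PC3-H but 241 on PC3-L, while LNCaP had 109 against 592 on the array labelled LNCaP-AI, with the same arrays high. On PC3-L against PC3-H, SCARNA5 was 4.27-fold lower and SCARNA6 2.21-fold lower; they were 3.71-fold and 5.41-fold higher when the array labelled LNCaP-AI was set against LNCaP. These folds are on the scale of intensity plus 1. The 2 genes therefore differed in opposite directions in the 2 pairs, which share no array; with 1 array per group the difference between the pairs was not tested. With the PC3 labels turned, as the free-text descriptions have them, low against high would have the same sign in both pairs. Centring on the Cajal body RNAs themselves brought SCARNA6 within 2-fold in the PC3 pair (−0.74). Their order within a pair of low arrays was not the same: PC3-L was the lowest of 4 for SCARNA5 and LNCaP for SCARNA6. SCARNA10, the third with both boxes, which guides methylation and pseudouridylation of the U5 snRNA, had a smaller range: 333, 285, 365 and 512 on PC3-H, PC3-L, LNCaP and the array labelled LNCaP-AI.

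**Figure D1:**
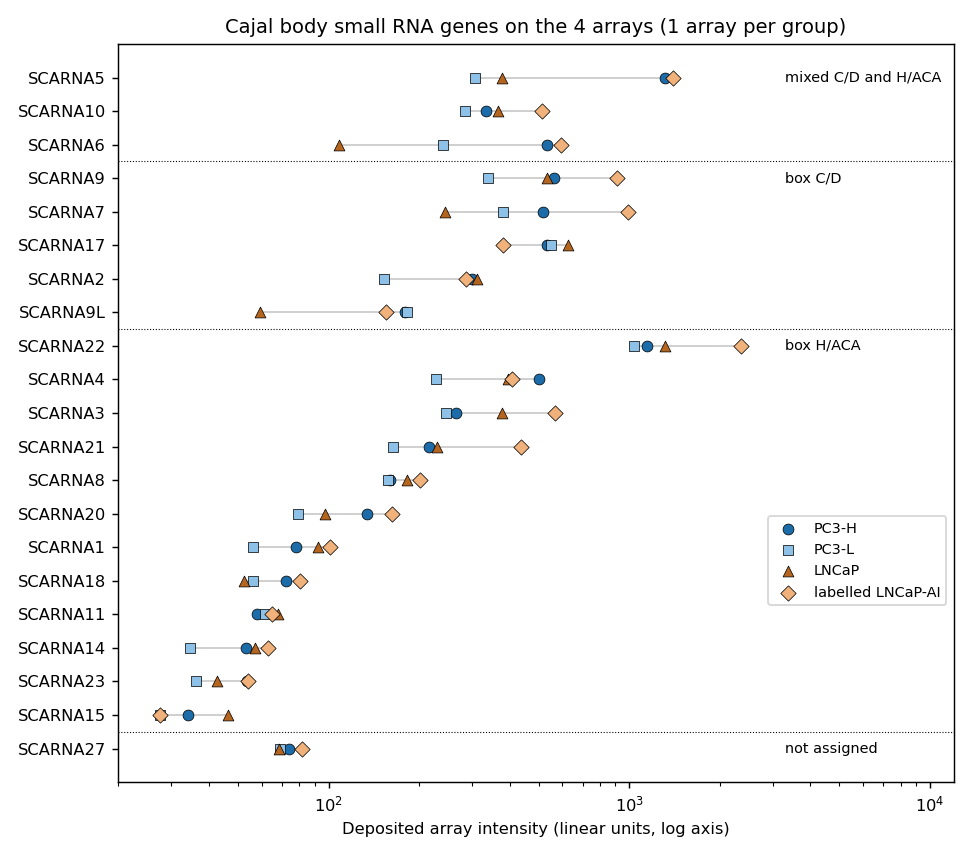
Deposited intensity (log axis) of each of the 21 Cajal body RNA genes on the 4 arrays, 1 point per array, with a grey line from the lowest to the highest; genes are grouped by class, and levels of different genes are not comparable. The array labelled LNCaP-AI is the highest point for 15 of the 21 genes, and PC3-L is the lowest for 14. This order depends on the centring of the arrays.

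Among the box C/D genes, SCARNA7 (U90) was 518 on PC3-H but 381 on PC3-L, while LNCaP had 244 against 993 on the array labelled LNCaP-AI. SCARNA7 was 4.05-fold higher on the last than on LNCaP, and its difference in the PC3 pair was −0.44 (log2). SCARNA9, a guide for the U2 snRNA, was 561, 340, 532 and 914 in the same order, and its copy SCARNA9L was 180, 182, 59.0 and 156. SCARNA9L was low on LNCaP only, by 2.61-fold against the array labelled LNCaP-AI, while SCARNA9 differed by 1.72-fold in that pair. Probes for such copies may take up each other's RNA, which was not checked here. SCARNA2, another U2 guide and the only member outside any other gene, was 301, 153, 311 and 286, low on PC3-L alone. Its 1.95-fold difference in the PC3 pair lay just under 2-fold. SCARNA17 (U91) was 532 and 549 on the PC3 arrays and 625 on LNCaP, against 381 on the array labelled LNCaP-AI. SCARNA17 was the only member lowest on the array labelled LNCaP-AI.

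Among the box H/ACA genes, SCARNA4 was the one member of its class past 2-fold in a design pair: it was 500 on PC3-H and 228 on PC3-L (2.19-fold lower), and 394 and 408 in the LNCaP pair. SCARNA22, the H/ACA RNA within the histone methylase gene NSD2, was 1145 and 1037 on the PC3 arrays and 1313 on LNCaP, against 2354 on the array labelled LNCaP-AI. SCARNA21 had the same shape at lower intensity, with 216, 163 and 230 against 437. SCARNA3 was 266, 246 and 378 against 567. SCARNA20 was 134 on PC3-H but 79.3 on PC3-L, while LNCaP had 97.5 against 163 on the array labelled LNCaP-AI. SCARNA1 was 77.8, 55.9, 92.4 and 101 in this order, and SCARNA8 was nearly level at 160, 157, 182 and 202.

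The dimmer H/ACA genes were all within 2-fold in both pairs. SCARNA11 lay between 57.9 and 68.1 on all arrays, and SCARNA18 between 52.4 on LNCaP and a highest value of 80.6 on the array labelled LNCaP-AI. SCARNA14 was lowest on PC3-L, at 34.5, against 53.3 to 62.7 elsewhere, and SCARNA23 was lowest there too, at 36.2, against 42.7 to 54.0. SCARNA15 was 46.3 on LNCaP and 27.5 on PC3-L as well as on the array labelled LNCaP-AI, with 34.0 on PC3-H, and reached the filter level on LNCaP alone. The unclassed SCARNA27 lay between 68.4 and 81.5. The lowest deposited value was 17.6, so a fold of a dim gene may be understated. The filter level is also not a limit of detection. KLK3, listed for LNCaP, was 59.0 and 63.4 on the PC3 arrays, and SOX10 lay between 54.2 and 60.8 on all arrays. LUM and LYZ lay lower, under the filter level. Whether these dimmer genes were detected was not tested, and they count in the signs below where they reached the filter.

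In PC3-L against PC3-H, most Cajal body RNAs were lower on PC3-L. In cultures read in bulk, fewer cells that hold an RNA and less of it per cell cannot be told apart. A gene counted in a pair when it reached the 40th percentile of all probes on at least 1 of the 2 arrays, as 20 of the 21 did; SCARNA15 did not. Of the 20, 17 were below 0 and 3 above, with a median log2 difference of −0.42, against a median of −0.02 and 51.6% below 0 over 11135 genes; centring the arrays on these RNAs themselves left 10 below and 9 above. SCARNA4, SCARNA5 and SCARNA6 were past 2-fold lower and 0 were past it higher, while 3.76% of all genes were past 2-fold lower, 8.58% higher and 12.3% in either direction. The 3 of 20 in either direction was near that last share. Without SCARNA5 and SCARNA6, 1 of 18 was past 2-fold. At 1.5-fold 7 were lower and 0 higher, against 10.7% and 18.7% of all genes.

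By class, the 3 genes with both boxes were all below 0 in this pair, from −2.09 to −0.22. The 11 measured H/ACA genes had a median of −0.40, with 10 below 0, and the 5 C/D genes a median of −0.44, with 3 below 0. The signs below 0 thus lay in each class, while folds of 2 or more were in SCARNA5, SCARNA6 and SCARNA4.

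In the array labelled LNCaP-AI against LNCaP, most Cajal body RNAs were higher on the former. All 21 reached the filter, with 17 above 0 and 4 below. The median log2 difference was 0.48, against 0.00 with 50.5% above 0 over 11136 genes. Centring on these RNAs themselves moved every gene by −0.65, further than that median, and left 8 above and 13 below. SCARNA5, SCARNA6, SCARNA7 and SCARNA9L were past 2-fold higher and 0 lower, while 5.45% of all genes were past 2-fold higher, 5.13% lower and 10.6% in either direction. Without SCARNA5 and SCARNA6, 2 of 19 were past 2-fold higher. At 1.5-fold 9 were higher and 2 lower (SCARNA15 and SCARNA17), against 11.4% and 12.3% of all genes. Because LNCaP differs from that array at the line markers, a difference of line and a difference of treatment cannot be told apart.

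The H/ACA genes had a median of 0.24 in this pair (10 of 12 above 0, none past 2-fold). The C/D genes had a median of 0.78 over 5 genes, with 3 above 0 and 2 below. The genes with both boxes had a median of 1.89 over 3 genes, with all 3 above 0. All 4 genes past 2-fold thus belonged to the classes of longer RNAs, but 2 of them, SCARNA5 and SCARNA6, were known to differ when the family was chosen. The longest members, SCARNA17 (421 bases) and SCARNA2 (420 bases), were below 0, at −0.71 and −0.12. Over the 21 genes the size of the difference had a Spearman rho of 0.24 with length and 0.43 with mean intensity, and over 20 genes in the PC3 pair of 0.04 and 0.20, given as descriptions across genes of the same arrays.

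Side by side, 16 of the 20 genes measured in both pairs were below 0 for PC3 and above 0 in the LNCaP pair, against 25.4% of 10762 genes, with signs that depend on the centring as above. SCARNA11 and SCARNA17 had the opposite signs, SCARNA2 was below 0 in both and SCARNA9L above 0 in both. With a 2-fold threshold in each pair, 2 of 20 had this pattern, SCARNA5 and SCARNA6, and 15 (0.139%) of all genes did. The opposite directions of SCARNA5 and SCARNA6 were known when the family was chosen, so this count gives no further support for them. The other opposite signs, higher on PC3-L and lower on the array labelled LNCaP-AI, were past 2-fold in both pairs for 36 genes and 0 members. The 13 other genes of those 15 are named after their values were seen. They were BACE2, ETV4, EXOSC5, GRN, IER3, IGFBP4, LINC00857, LPAR1, NRP1, SDC4, SLIT2, THBS1 and TNS3. EXOSC5, a subunit of the RNA exosome, is also on the list of trimming and decay genes below. It was 514 on PC3-H but 255 on PC3-L, while LNCaP had 124 against 345 on the array labelled LNCaP-AI. The 19 genes of that list did not share these signs. For PC3, 13 were above 0 and 6 below, and for the LNCaP pair 9 were above and 10 below. A part of EXOSC5 in the levels of the small RNAs was not tested.

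**Figure D2:**
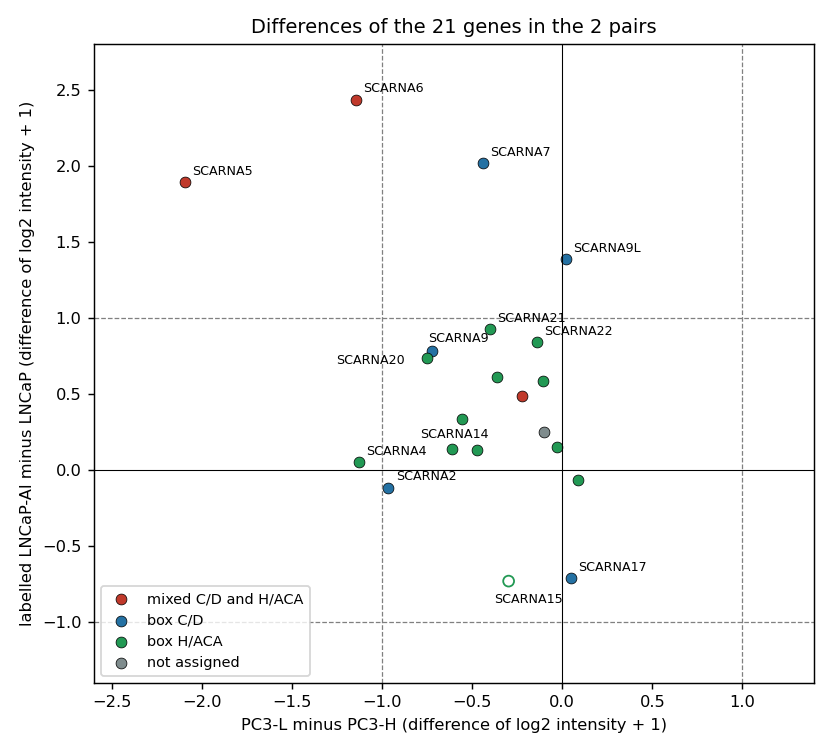
Log2 difference of each Cajal body RNA gene with the PC3 pair on the x axis and the LNCaP pair on the y axis, coloured by class; dashed lines mark 2-fold and the open circle is SCARNA15, which did not reach the filter in the PC3 pair. Most points lie to the left of 0 and above 0, which centring on these RNAs themselves would undo, and SCARNA5 and SCARNA6 alone lie past 2-fold on both axes.

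The array labelled LNCaP-AI was highest for 15 of 21 genes (71.4%), against 19.4% of 11509 genes past the filter on any array, and PC3-L was lowest for 14 (66.7%), against 29.3%. LNCaP was lowest for 5 and highest for 4. The order depends on the centring of the arrays. Against PC3-H, the array labelled LNCaP-AI was higher for 16 of 20 genes and lower for 4. After centring on these RNAs themselves it was higher for 6 and lower for 14. The 2 arrays at the ends of this order were the most alike over all probes, with r = 0.961 across 37934 probes on the log2 scale. Across the 21 Cajal body RNAs the array labelled LNCaP-AI had r = 0.936 with PC3-L, 0.966 with PC3-H and 0.881 with LNCaP; these are across genes, which are not replicates.

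The array labelled LNCaP-AI against PC3-L restates this order, since these arrays are most often its ends, and gives no further support for it. Of 20 genes past the filter, 18 were higher on the former and 2 lower, SCARNA9L and SCARNA17, with a median log2 difference of 0.85 against 0.01 over 10956 genes. SCARNA5 was 4.56-fold higher, SCARNA9 2.68-fold, SCARNA21 2.67-fold, SCARNA7 2.60-fold, SCARNA6 2.45-fold, SCARNA3 2.30-fold, SCARNA22 2.27-fold and SCARNA20 2.04-fold. These 8 of 20 (40%) stand beside 0.831% of all genes past 2-fold higher, 1.95% lower and 2.78% in either direction; without SCARNA5 and SCARNA6 it was 6 of 18. Centring on the Cajal body RNAs themselves left 1 past 2-fold higher and 2 lower, with 13 above 0 and 7 below. The H/ACA genes had 4 of 11 past 2-fold here, the C/D genes 2 of 5 and the genes with both boxes 2 of 3. This comparison shares an array with each design pair and is not independent of them.

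**Figure D3:**
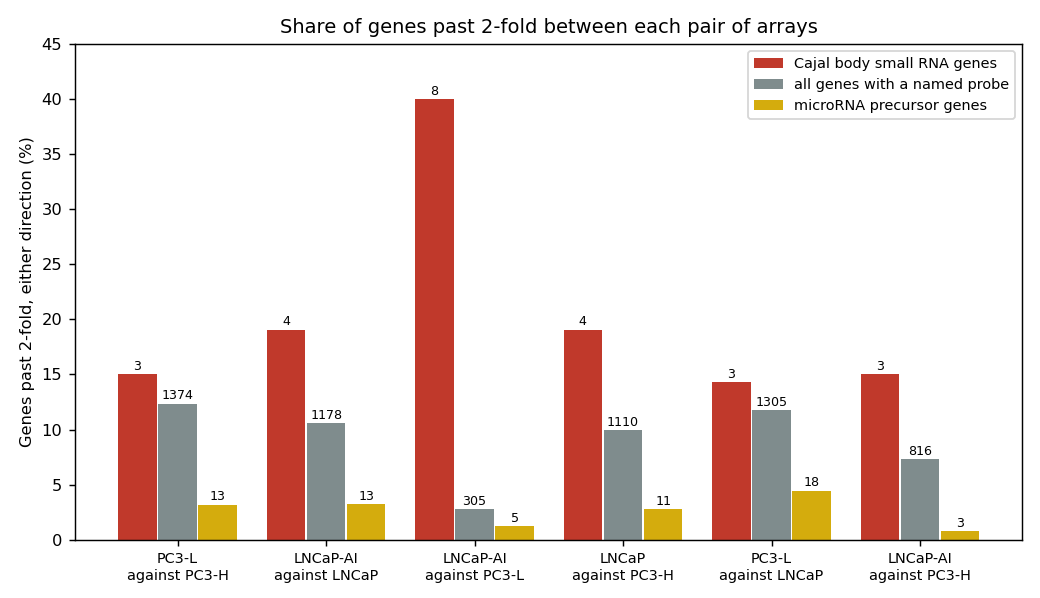
Percent of genes past 2-fold in either direction between each of the 6 pairs of arrays, for the Cajal body RNA genes, all genes with a named probe and microRNA precursor genes past the filter; numbers over the bars are counts of genes. The Cajal body RNAs reach 40% between the array labelled LNCaP-AI and PC3-L, where all genes are at 2.78%; the pairs share arrays, and this one was the pair of arrays at the ends of the order over these same genes.

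In the other 3 pairs the shares lay closer to the background. LNCaP had 4 of 21 genes past 2-fold lower than PC3-H (SCARNA5, SCARNA6, SCARNA7 and SCARNA9L) and 0 higher, while 4.49% of all genes were past 2-fold lower, 5.46% higher and 9.95% in either direction. PC3-L against LNCaP had 2 higher (SCARNA6 and SCARNA9L) and 1 lower (SCARNA2, within 2-fold with a pseudocount of 16 or median centring) of 21, against 7.23% higher, 4.51% lower and 11.7% in either direction. The array labelled LNCaP-AI against PC3-H had 3 of 20 higher (SCARNA3, SCARNA21 and SCARNA22) and 0 lower, against 3.98%, 3.35% and 7.33% in either direction, and 0 higher after centring on these RNAs.

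Host genes were set beside their small RNAs. Of the 21 members, 11 lay within a gene with a named probe. ATG16L1, host of SCARNA5 and SCARNA6, was 117 on PC3-H but 97.3 on PC3-L, while LNCaP had 64.4 against 122 on the array labelled LNCaP-AI. Its log2 differences were −0.27 (PC3 pair) and 0.91 (LNCaP pair), of the same signs as those of both small RNAs and smaller. KPNA4, an importin gene and host of SCARNA7, was 229, 411, 157 and 306 in the same order, so in the PC3 pair it was higher on PC3-L (0.84) where SCARNA7 was lower. KHDC4, host of SCARNA4, was 150, 133, 121 and 102.

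NSD2 was 110 on PC3-H and 234 on PC3-L (1.09), where SCARNA22 differed by −0.14, and 133 and 151 on LNCaP and the array labelled LNCaP-AI. The remodeller gene CHD3 was 307 and 627 on the PC3 arrays (1.03), where SCARNA21 differed by −0.40, and 461 and 828 in the LNCaP pair. With a pseudocount of 16 the PC3 difference of each of these hosts was 0.99, just under 2-fold. TIPIN, a replication fork gene, was 159 on LNCaP against 72.1 on the array labelled LNCaP-AI (−1.13), where SCARNA14 differed by 0.14; with a pseudocount of 16 it was −0.99, and TIPIN was 98.1 and 97.2 on the PC3 arrays. CEP295, host of SCARNA9, differed by 0.49 and −0.19 in the PC3 and LNCaP pairs, CHD4, around SCARNA11, by −0.15 and −0.35, and TMEM167A, around SCARNA18, by 0.38 and 0.05. FSD2, around SCARNA15, did not reach the filter in the LNCaP pair.

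Over the 10 member and host pairs past the filter, the small RNA had the lower log2 difference in 9 in the PC3 pair, SCARNA11 being the exception. In the LNCaP pair it had the higher in 10 of 10. Most members were below 0 in the PC3 pair and above 0 in the LNCaP pair, so these counts are not separate from those signs. Member and host had the same sign in 4 of 10 and 7 of 10. Pearson's r between member and host differences was 0.55 (Spearman 0.64) for the PC3 pair and 0.84 (0.93) for the LNCaP pair, as a description over 10 points from 9 hosts on the same arrays. Without SCARNA5 and SCARNA6 r was 0.29 and 0.80. Whether a probe also takes up unspliced host RNA was not tested.

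**Figure D4:**
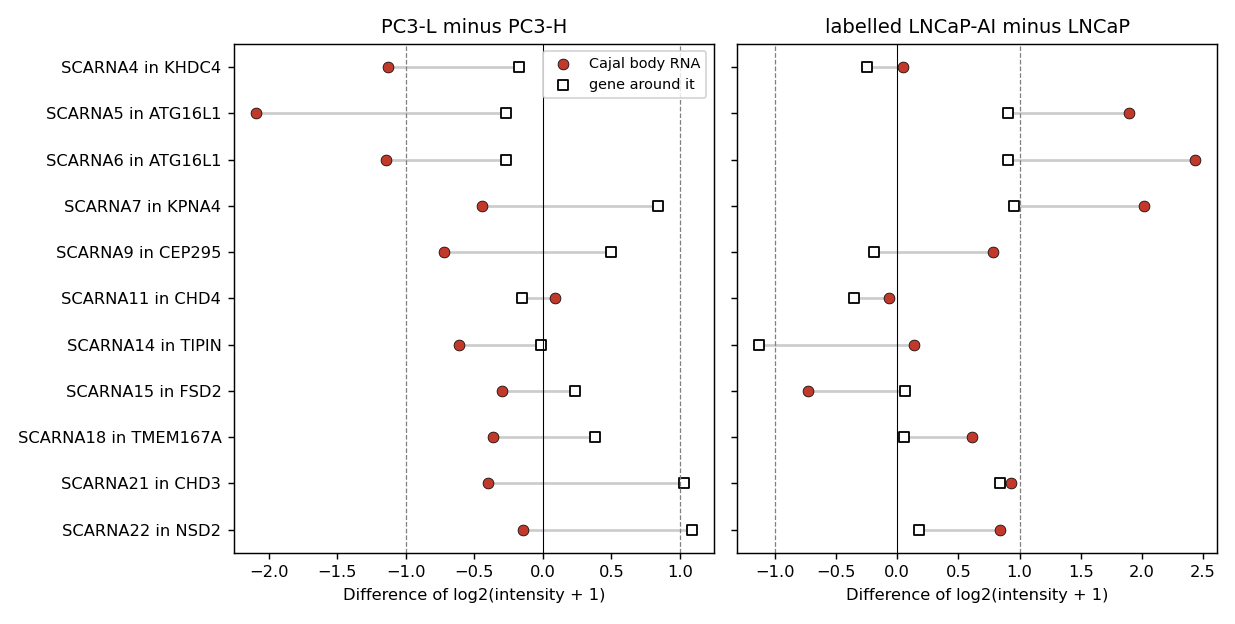
Log2 difference of 11 Cajal body RNAs (filled circles) and of the gene around each (open squares) for the PC3 pair (left) and the LNCaP pair (right); dashed lines mark 2-fold and grey bars join each member to its host. In the PC3 pair 9 of the 10 pairs past the filter have the circle to the left of the square, and in the LNCaP pair all 10 have it to the right; SCARNA15 with FSD2 is drawn but was not counted.

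Other short RNAs were read beside the family, all but TERC chosen after the data had been seen. RMRP, the RNA of RNase MRP, was nearly level at 8144, 7473, 7375 and 7742 on PC3-H, PC3-L, LNCaP and the array labelled LNCaP-AI. These values lie toward the top of the scale, where the highest was 11188. Whether a difference would show there was not tested. RPPH1, the RNA of RNase P, was 160, 109, 167 and 156. The vault RNAs did not share 1 order: VTRNA1-1 was 95.0, 66.0, 56.1 and 150, and VTRNA1-3 was 120, 176, 388 and 135. VTRNA1-2 was 125, 40.8, 48.0 and 69.4, and VTRNA2-1 was 81.6, 52.7, 19.9 and 54.7. Of these 6 RNAs, 5 were below 0 in the PC3 pair (median −0.53, 1 past 2-fold lower), against 51.6% of all genes below 0. In the LNCaP pair 4 were above 0 (median 0.30, 2 past 2-fold higher and 1 lower), against 50.5% of all genes above 0. VTRNA1-3 had the opposite signs, with log2 differences of 0.55 and −1.51. MicroRNA precursor genes had 13 of 408 past 2-fold in the PC3 pair (median −0.04) and 13 of 401 in the LNCaP pair (median 0.03). TERC, telomerase RNA, was 1210 on PC3-H and 309, 448 and 356 on the others, 3.91-fold lower on PC3-L than on PC3-H. It did not share the high value of SCARNA5 and SCARNA6 on the array labelled LNCaP-AI.

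Counts of the protein and host lists stand beside 8.58% of all genes past 2-fold higher and 3.76% lower in the PC3 pair, and 5.45% and 5.13% in the LNCaP pair. Of 8 measured genes for H/ACA proteins and their assembly factors 1 was past 2-fold in each pair, with medians of 0.11 and −0.00. The assembly factor NAF1 was 68.6 on PC3-H and 177 on PC3-L (2.56-fold higher), and 109 and 93.4 in the LNCaP pair. The ATPase RUVBL2 was 351 on LNCaP against 769 on the array labelled LNCaP-AI (2.18-fold higher), and 620 and 626 on the PC3 arrays. The core proteins NOP10, NHP2 and GAR1 had log2 differences of −0.33, −0.42 and 0.20 for PC3 and 0.01, −0.19 and 0.07 in the LNCaP pair. The chaperone SHQ1 differed by −0.17 and 0.06, RUVBL1 by 0.34 and −0.33, and NUFIP1 by 0.50 and −0.02. The synthase gene DKC1 had no named probe and is not analysed here.

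Of 16 Cajal body and scaRNP genes 2 were past 2-fold higher and 1 lower in the PC3 pair (median 0.27), and 0 higher and 1 lower in the LNCaP pair (median −0.02), each near those shares of all genes. Higher on PC3-L were TGS1, which trimethylates the cap of small RNAs that have their own promoter (146 against 53.6), and GEMIN8 of the SMN complex (59.1 against 27.5, a log2 difference of 1.08 that was 0.79 with a pseudocount of 16); the lower one was TERC. NOLC1, a chaperone of nucleoli and Cajal bodies, was 433 on LNCaP against 161 on the array labelled LNCaP-AI (2.68-fold lower), and 242 and 323 on PC3-H and PC3-L. COIL, which encodes the scaffold protein coilin, was 59.1, 74.6, 68.9 and 61.3. USPL1 differed by 0.95 and 0.37, ICE1 by 0.56 in each pair, and TCOF1 by −0.73 and 0.07. The telomerase protein gene TERT differed by −0.22 and 0.00 and ELL by −0.15 and −0.20. GEMIN2, DDX20, GEMIN4, GEMIN5, GEMIN6 and GEMIN7 lay between −0.40 and 0.44 in both pairs.

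The remaining lists, of 5 to 19 measured genes, are given by counts, to be read against the same shares of all genes. Of 19 trimming and decay genes 3 were higher and 2 lower in the PC3 pair (median 0.47), with XRN1 3.07-fold, EXOSC8 2.67-fold and MTREX 2.29-fold higher; EXOSC4 and EXOSC5 were the lower ones. In the LNCaP pair 2 were higher (median −0.03), EXOSC5 2.77-fold and DIS3 2.53-fold. Of 5 box C/D proteins 0 were past 2-fold in either pair (medians −0.02 and −0.15), and likewise 0 of 19 spliceosomal proteins (0.13 and 0.03). Of 14 polymerase I and ribosome processing genes 1 was lower in each pair, BOP1 (2.30-fold) in the PC3 pair and MYC (3.12-fold) in the LNCaP pair, with medians of 0.02 and −0.32. Of 12 stand-alone pseudouridine synthases RPUSD1 was 2.13-fold lower in the PC3 pair, and TRUB1 (2.75-fold) and PUS3 (2.03-fold) were lower in the LNCaP pair (medians −0.03 and −0.11). Of 12 non-coding snoRNA hosts 3 were higher and 1 lower in the PC3 pair (median −0.16), with ZFAS1 2.32-fold, SNHG5 2.30-fold and GAS5 2.08-fold higher. In the LNCaP pair 2 were lower (median −0.40), GAS5 (2.15-fold) and DANCR (2.11-fold).

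Low against high glycan label over all 4 arrays is the one contrast with a residual degree of freedom, fitted with limma and the line as labelled, and it rests on the label that the line markers went against. At an adjusted p under 0.05, 0 of 21 members and 0% of 11509 genes passed; at an unadjusted p under 0.05, 0 members and 8.81% of genes did. The lowest adjusted p of a member was 0.718 (SCARNA15, limma with Benjamini-Hochberg adjustment over all genes), and over the alternatives fixed for it the lowest lay between 0.36 and 0.775. SCARNA5 had a log2 difference of −0.10 with a standard error of 0.99, and SCARNA6 one of 0.65 with 0.89. Their pairs differ in sign, and the fit counts that as error. With the PC3 labels turned, SCARNA5 had a log2 difference of 1.99 with a standard error of 0.21 and SCARNA6 one of 1.79 with 0.43, so these values depend on which PC3 label is right. The turned fit again called 0 members and 0 genes at an adjusted p under 0.05, with 4 members and 2.61% of genes at an unadjusted p under 0.05 (limma, lowest adjusted p of a member 0.998). The 4 were SCARNA5, SCARNA6, SCARNA9 and SCARNA20, and this fit was chosen after seeing the data. Each had opposite signs in the PC3 and LNCaP pairs, which turning the PC3 labels makes the same. Their number therefore gives no further support for a difference. With so few arrays, a p that misses the threshold does not show that levels were alike.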

How the data were processed

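Total RNA was taken with ISOGEN II and labelled with the GeneChip WT kit, per the labels' protocols, and read on 1 Affymetrix array per group. The authors deposited linear intensity, from 17.6 to 11188; probe summary, background correction and normalization are not given in the sources used here. The series' design text names GeneSpring GX 12.6, a 2-fold difference and a false discovery rate of 10%. Of 37934 probes 14952 had 1 gene symbol; the probe with the highest mean stood for a gene.

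Differences are of log2(intensity + 1), without error or p-value within a pair. The labelled contrast used limma 3.58.1 in R 4.3.3, tested on simulated data. Classes came from textbook knowledge, assigned after the files were seen; hosts were genes whose span contains a member (RefSeq, GRCh38.p14), on either strand. The free-text description of LNCaP calls it androgen-independent, against its characteristics, which were followed. Named were every member, their hosts, all H/ACA and Cajal body protein genes, and up to 3 genes past 2-fold from other lists. The genes that shared the pattern of SCARNA5 and SCARNA6 past 2-fold were also named. Members and lists were chosen with earlier results of these data known. No SNORD gene had a named probe, so microRNA precursors stood in, chosen after seeing the data. Alternatives were pseudocounts 0 and 16, filters, probe averaging, normalizations and a 1.5-fold threshold. The number of arrays limits the precision.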

Additional observations from a re-analysis of the deposited data

Results flagged for a closer look

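SCARNA5 and SCARNA6 were past 2-fold in both pairs with opposite signs. The log2 difference of SCARNA5 was −2.09 for PC3-L against PC3-H and 1.89 in the LNCaP pair, and that of SCARNA6 was −1.14 and 2.43. The difference between the pairs was not tested, since each pair has 1 array per group. No other member met this, and the opposite directions of SCARNA5 and SCARNA6 were known when the family was chosen. Centring on the Cajal body RNAs themselves brought SCARNA6 within 2-fold in the PC3 pair (−0.74). The PC3 signs turn if the free-text descriptions, not the titles, give its labels.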

How the results depend on the processing

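With 1 array per group no replicate could be left out of a pair. No paired analysis was possible because each group had 1 array, apart from the limma contrast, whose line term pairs the arrays by labelled line; leaving out an array was run without that term and called 0 members for each array, with 0 to 280 genes at an adjusted p under 0.05 (280 without PC3-H, 71 without LNCaP). Alternatives for the 4 pairs outside the design, the turned PC3 labels and the left-out arrays were chosen after seeing the data. In the PC3 and LNCaP pairs, pseudocounts, filters, probe averaging, quantile normalization and median centring kept the counts of members past 2-fold within 1.5 times and the medians within 0.1. Centring on the Cajal body RNAs moves every gene by 0.40 and −0.65 in these pairs, where the median differences of the members were −0.42 and 0.48. It thus took out the median shift of the PC3 pair by construction and moved the LNCaP pair past 0. In the PC3 pair it gave 1 gene past 2-fold lower and a median of −0.021. In the LNCaP pair it gave 3 higher, 2 lower and a median of −0.17. The array labelled LNCaP-AI then had 1 gene higher and 2 lower than PC3-L (median 0.038), and 0 higher than PC3-H (median −0.21). For LNCaP against PC3-H the centring moved the median from 0.05 to 0.29. For PC3-L against LNCaP the median was −0.14, with 0 lower. The last count was also 0 with a pseudocount of 16 and with median centring, and quantile normalization gave a median of 0.97 for the array labelled LNCaP-AI against PC3-L. The 1.5-fold threshold gave 7 lower in the PC3 pair, and 9 higher and 2 lower in the LNCaP pair. Without SCARNA5 and SCARNA6, chosen after seeing the data, 1 was lower in the PC3 pair, and 2 were higher with a median of 0.33 in the LNCaP pair. Of 857 single-gene values no value past 2-fold changed sign, 10 fell within 2-fold and 7 went past it; smaller values changed sign in 37 of 108 cases under centring on the Cajal body RNAs and in 6 of 749 otherwise. Quantile normalization took SCARNA2 past 2-fold in the PC3 pair (−1.10). The limma contrast called 0 members under each alternative run; a variance trend gave 115 genes at an adjusted p under 0.05, and 1 member at an unadjusted one.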
